A study of Mus musculus with 10 samples.

Results

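The cytosolic ribosomal protein genes were examined in mouse olfactory epithelium, the sensory tissue of the nose. Genes were chosen by symbol: names made of Rpl or Rps, a number and at most 1 letter and a further number, together with Rpsa, Rplp0, Rplp1 and Rplp2. Kinases of the Rps6k family and names marked as pseudogenes with -ps were left out. The rule took 84 of the 24421 genes in the authors' deposited table, 33 of the small and 51 of the large subunit, and 79 of them passed the authors' filter on low counts and were tested. It used names alone, and no measured value, but the group was chosen with earlier results of these data known.

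Poly(A)-selected RNA was sequenced from untreated C57BL/6 mice aged 6 months, 4 of the genotype labelled Apoe3 and 6 of the genotype labelled Apoe4, names of human alleles of the lipid carrier apolipoprotein E. How the alleles are carried, and the animals' sex, is not given in the sources used here. Genotype is what the comparison is about: it asks which transcripts differ in level between the alleles. Means, folds and tests below are the authors' own, made over all 10 libraries. Each held about 14900000 to 20100000 reads counted on genes, an estimate and not the number sequenced. A positive fold was read as higher in Apoe4 from genes with a single read. Values per library were not analysed here, so whether the groups overlap cannot be shown for single genes.

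The cytosolic ribosome is built from a small subunit, which reads the messenger RNA, and a large subunit, which joins amino acids. Each subunit is a core of ribosomal RNA dressed with proteins that nearly every cell makes in matched amounts. Messenger RNAs of these proteins begin with a C followed by a run of pyrimidines, the 5′ terminal oligopyrimidine tract, through which the mTOR pathway and the RNA-binding protein LARP1 set their translation together. Loss of single ribosomal protein genes causes Diamond-Blackfan anaemia in people, in which red cell precursors are affected first.

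The shared start of these messages is shown first, because it is the best known sequence feature of the group. RefSeq windows (GRCm38.p6) of 250 bases before to 50 bases after an annotated start were found for 63 of the 84 genes. A start at C with a run of at least 5 pyrimidines stood in 13 of these 63 genes (20.6%) and in 3.01% of 27025 genes with a window. Across the 20 bases before and 50 after the start, the longest pyrimidine run had a median of 10 bases in ribosomal protein genes and of 6 in all genes. Of the lines that follow, 6 show clear examples and the last is Rps26, a gene that passed the test, whose run began 3 bases inside the annotated message. Each holds 40 bases before and 20 after the annotated start, 5′ to 3′ on the gene's strand. Capitals mark the part of the pyrimidine run that lies at or after the annotated start. In the first 6 lines further pyrimidines stand in lower case directly before it.
Rpl15 (chr14:18270967-18271026, minus strand): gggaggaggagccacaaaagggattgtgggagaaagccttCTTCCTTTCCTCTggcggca
Rpl35 (chr2:39005112-39005171, minus strand): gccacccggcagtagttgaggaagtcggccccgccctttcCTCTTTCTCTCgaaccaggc
Rps10 (chr17:27635225-27635284, minus strand): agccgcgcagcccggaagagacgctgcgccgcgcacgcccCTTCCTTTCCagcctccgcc
Rps6 (chr4:86857348-86857407, minus strand): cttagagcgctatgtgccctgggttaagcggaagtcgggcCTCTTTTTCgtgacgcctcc
Rps18 (chr17:33955646-33955705, minus strand): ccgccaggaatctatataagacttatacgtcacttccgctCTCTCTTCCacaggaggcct
Rpl28 (chr7:4792925-4792984, plus strand): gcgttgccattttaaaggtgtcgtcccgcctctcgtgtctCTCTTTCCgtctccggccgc
Rps26 (chr10:128626487-128626546, minus strand): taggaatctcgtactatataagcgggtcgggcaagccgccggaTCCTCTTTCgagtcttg

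Other letters were also counted on both strands of the same 300-base windows. The ETS motif CCGGAAG was present in 26 of 63 ribosomal protein genes (41.3%) and in 9.93% of all genes. CTCTTTC, which can lie inside the pyrimidine run, was found in 28.6% against 9.28%, and the YY1 motif AAGATGGC in 9.52% against 3.19%. TATAAA was found in 11.1% against 15.7%. A match is a description of the letters and not a site of binding. Annotated starts in RefSeq can lie upstream of the main start, so a gene without the run at its annotated start may still carry it. By the authors' deposited table, 13 tested genes with the run at the annotated start had a median log2 fold change (Apoe4 over Apoe3) of -0.14. The other 46 tested genes with a window had one of -0.17.

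Most ribosomal protein genes had small negative folds, and few passed the test alone. Of the 79 tested genes, 76 (96.2%) had a negative log2 fold change (lower in Apoe4) by the authors' deposited table, against 48.9% of all 16050 genes tested. The median of the 79, from the authors' deposited table, was -0.18, a level 11.5% lower in Apoe4, with quartiles of -0.21 and -0.13. The median over all genes tested was 0.00. At an unadjusted p under 0.05, 40 of the 79 (50.6%) were lower and 0 higher, and over all genes 5.76% were lower and 4.54% higher. By the authors' DESeq2 test with Benjamini-Hochberg adjustment over all genes, 3 of the 79 (3.80%) fell at an adjusted p under 0.05, which 0.455% of all genes did, and 0 rose (0.324% of all genes). In either direction 0.779% of all genes passed. The genes are measured in the same libraries and are not replicates of one another.

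**Figure D1:**
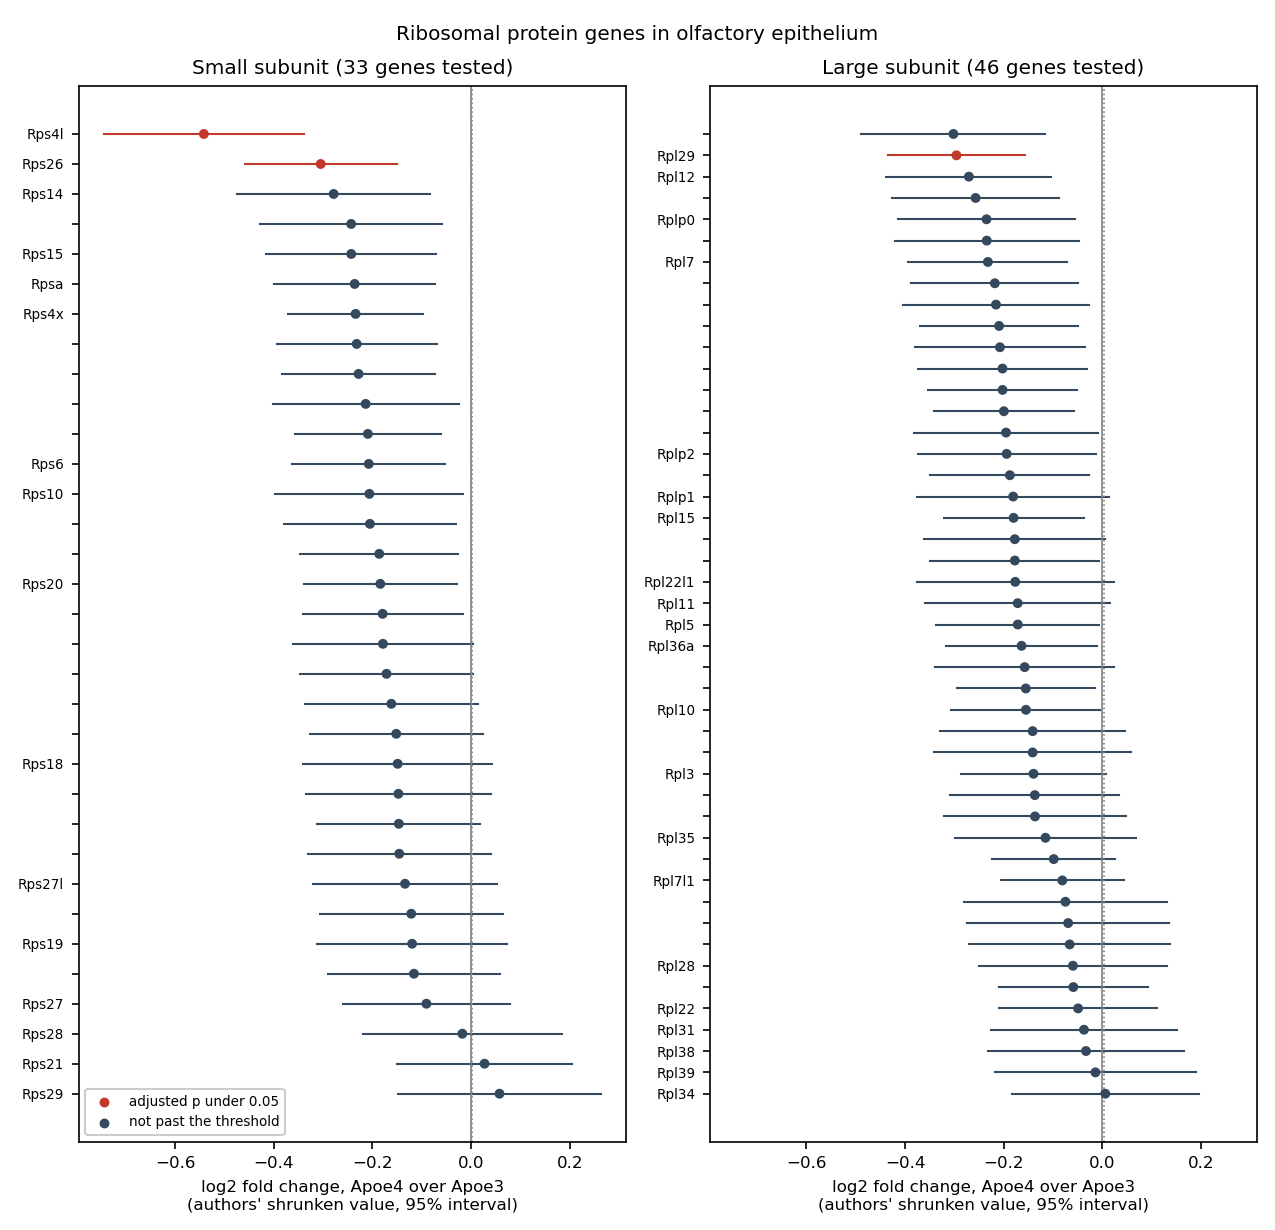
Log2 fold change of Apoe4 over Apoe3 (horizontal axis) for each tested ribosomal protein gene of the small (left, 33 genes) and large subunit (right, 46 genes), from the authors' deposited table. Points are the authors' shrunken values, bars are 95% intervals, names are given for genes the text describes, and the dotted line is the median of all genes tested; 76 of 79 points lie below 0 and Rps4l, Rps26 and Rpl29 passed the adjusted test.

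**Figure D2:**
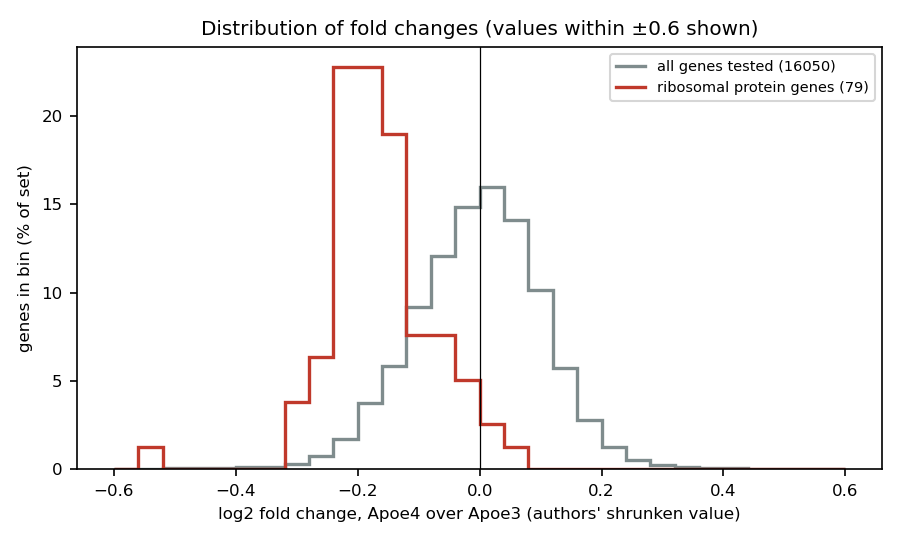
Share of genes (vertical axis, percent of each set) in bins of log2 fold change of width 0.04, for the 79 ribosomal protein genes and for all 16050 genes tested. The ribosomal protein genes centre on -0.18 and all genes on 0.00; values beyond ±0.6 are not drawn.

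Several other measures moved with this shift. Across 15970 genes the Wald statistic (the log2 fold change over its error) rose with the length of the longest transcript (Spearman rho = 0.415 across genes, which are not independent replicates), and the longest transcripts of tested ribosomal protein genes have a median of 1094 bases against 3341 for all genes tested. With the length trend subtracted from the folds, the median of the 79 genes was -0.11 and 67 of them stayed negative. With the length trend subtracted from the Wald statistic, 14 of the 79 were lower at an unadjusted p under 0.05, in place of 40, and 1 passed the adjusted test. All 4 Y-linked genes tested fell in Apoe4 (0.455% of all genes did). The authors' deposited table gave them log2 values from -3.72 to -2.80, so genotype and this sex-linked difference cannot be told apart. Of 10 red cell markers, 9 were in the table, and the 5 tested all had negative folds, with a median of -0.25 in the authors' deposited table. Of these, 4 fell (0.455% of all genes did), among them Alas2, Slc4a1 and Car1, while Hba-a1, Hba-a2, Hbb-bs and Hbb-bt are listed at 0. The mean counts of the 9 summed to 1936 over all libraries. Of that sum 1642 came from Car2, which did not pass the authors' DESeq2 test (adjusted p = 0.313). The part of these markers in the result was not tested. Markers of mature olfactory neurons (Omp, Cnga2 and others, 7 of 7 found at means from 4263 to 113676) and of sustentacular cells (Cyp2g1 and others, 5 of 5 found) had medians of -0.04 and -0.09 in the authors' deposited table with none past the threshold. The other marker lists, of immature neurons, basal and globose basal cells, glands, macrophages, ciliated and plasma cells, had medians from -0.06 to 0.10. Of their genes 1 passed (0.779% of all genes did in either direction), the immature neuron gene Dpysl3 at 0.24 (adjusted p = 0.0272). In a whole tissue, fewer cells of a type and less RNA per cell cannot be told apart.

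The member with the largest fold and the smallest p was Rps4l, which codes for no annotated protein. RefSeq lists it as a transcribed pseudogene on chromosome 6 (148354656 to 148355596, GRCm38), and GENCODE vM21 as a transcribed processed pseudogene, a spliced message copied back into the genome. It lies within the span of Tmtc1 (148232430 to 148444770), on the opposite strand, and overlaps 0 of its exons. By name and sequence it is a relative of Rps4x, the X-linked gene of a small subunit protein.

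Rps4l had a mean normalized count (reads divided by a size factor for library depth) of 321 in the authors' deposited table. The authors' deposited table gave it a log2 fold change of -0.54 (standard error 0.10, 95% interval -0.74 to -0.34), a level 31.3% lower in Apoe4, with an adjusted p of 8.2e-05 by their DESeq2 test. The authors' folds are shrunken towards 0; undoing the shrinkage gave between -0.92 and -1.32 for this gene, according to which of 2 solutions applies. Rps4x did not pass: the authors' deposited table gave it a mean of 6132 and a log2 fold change of -0.23 (standard error 0.07, adjusted p = 0.0829). Tmtc1, an endoplasmic reticulum protein gene on the other strand, had a mean of 1212 in the authors' deposited table and a log2 fold change of 0.06 (adjusted p = 0.796). Whether the counting used strand is unstated, so reads of Rps4l and unspliced reads of Tmtc1 cannot be told apart. Among 28 other tested genes within 2.5 Mb of Rps4l, 0 passed the authors' DESeq2 test (0.779% of all genes did), and their smallest adjusted p was 0.485.

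Copies of ribosomal protein genes can share reads, so the sequences of this pair were compared. Over the 792 coding bases of Rps4x, the best local alignment with the Rps4l transcript had 79.9% identity, with 154 mismatches, 5 gap columns and a longest identical stretch of 35 bases. Of the 844 windows of 100 bases in the Rps4l transcript, 14 occurred in a transcript of another gene, all in that named Rps4l-ps and 0 in Rps4x. The first 120 coding bases of Rps4x and the matching stretch of Rps4l, with mismatches in capitals, show how the difference is spread.
Rps4x (coding bases 1 to 120): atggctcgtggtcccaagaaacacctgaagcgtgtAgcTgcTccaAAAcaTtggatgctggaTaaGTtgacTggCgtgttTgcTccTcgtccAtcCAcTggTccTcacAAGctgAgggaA
Rps4l (transcript bases 55 to 174): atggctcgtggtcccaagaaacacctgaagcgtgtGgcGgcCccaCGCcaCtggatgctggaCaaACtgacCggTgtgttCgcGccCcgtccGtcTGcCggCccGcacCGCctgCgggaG
This stretch holds 26 mismatches, from A36G to A120G, counted from 1 at the first coding base of Rps4x with the base of Rps4x first. Over the whole transcript the G and C content was 59.1% in Rps4l and 48.5% in Rps4x.

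The other 2 genes that passed code for parts of the ribosome. Rps26 codes for a small subunit protein at the exit channel of the messenger RNA, and is one of the genes of Diamond-Blackfan anaemia. Its mean was 3449 in the authors' deposited table, and it fell by 0.30 on the log2 scale (standard error 0.08, 95% interval -0.46 to -0.15), a level 19.0% lower in Apoe4 with an adjusted p of 0.0184. It lies on chromosome 10 (128624529 to 128626506), and 0 of 119 tested genes within 2.5 Mb passed, against 0.779% of all genes. Rpl29 codes for a small basic protein of the large subunit that vertebrates also carry at the cell surface as a heparin-binding protein. The authors' deposited table gave it a mean of 3259, and it fell by 0.30 (standard error 0.07, 95% interval -0.43 to -0.16, adjusted p = 0.00677), a level 18.5% lower. It lies on chromosome 9 (106428889 to 106431568), where 2 of 95 tested genes within 2.5 Mb passed, Nudt16 and Gpx1, against 0.779% of all genes. Of the 100-base windows in the Rpl29 transcript 62.0% also occur in transcripts of 27 other annotated genes, and for Rps26 24.1% occur in those of 4, so reads of both genes may have been split or dropped in counting. Neither gene passed once the trend with transcript length was subtracted (adjusted p = 0.197 for Rps26 and 0.117 for Rpl29), whereas Rps4l did (adjusted p = 0.00433). With a t distribution of 8 degrees of freedom in place of the normal of the authors' DESeq2 test, none of the 3 passed, with adjusted p of 0.365 for Rps4l, 0.682 for Rpl29 and 0.798 for Rps26.

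Both subunits had folds of similar size, and a difference between them was not tested. Small subunit genes had a median log2 fold change of -0.18 in the authors' deposited table, with 31 of 33 negative and 17 at an unadjusted p under 0.05. Large subunit genes had a median of -0.17 there, with 45 of 46 tested genes negative and 23 at an unadjusted p under 0.05. Over all genes 48.9% were negative and 5.76% were lower at the unadjusted p. After the 3 genes above, Rps4x and Rpl12 were among those with the smallest p-values. Rpl12 sits at the base of the stalk where elongation factors dock, and the authors' deposited table put it at -0.27 (standard error 0.09, adjusted p = 0.123).

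The stalk itself, a flexible arm that recruits elongation factors, is formed by Rplp0, Rplp1 and Rplp2. The authors' deposited table put Rplp0 at -0.23, Rplp1 at -0.18 and Rplp2 at -0.19, and their adjusted p ran from 0.305 to 0.523. Rps6, the target of S6 kinase downstream of mTOR, stood at -0.21 there (adjusted p = 0.292). Rpsa, a small subunit protein also known as the laminin receptor precursor, was listed by the authors' deposited table at -0.24 (adjusted p = 0.219). Rpl5 and Rpl11, which bind MDM2 when ribosome assembly fails, were both listed there at -0.17 (adjusted p = 0.469 and 0.534). None of these 7 genes passed alone.

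Over 22 tested of 23 genes of Diamond-Blackfan anaemia the median log2 value in the authors' deposited table was -0.17, and the 57 other tested genes had one of -0.18. Of the 22, 1 fell, Rps26 (0.455% of all genes fell), and 21 had negative values (48.9% of all genes). Rps19, the gene most often mutated in that disease, was put at -0.12 by the authors' deposited table (adjusted p = 0.717). Besides Rps4x, the X-linked genes are Rpl10 at -0.15, Rpl36a at -0.16 and Rpl39 at -0.01 in the authors' deposited table, and their adjusted p ran from 0.456 to 0.980. These 4 had a median of -0.16, and the 75 tested autosomal genes one of -0.18.

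Only 3 tested genes had positive values. The authors' deposited table listed Rps29 at 0.06 (95% interval -0.15 to 0.26), Rps21 at 0.03 (-0.15 to 0.20) and Rpl34 at 0.01 (-0.18 to 0.20), and the adjusted p ran from 0.892 to 0.991. The interval of Rpl34 took in the median of the group, -0.18, and those of Rps29 and Rps21 ended just short of it. Rps29 and Rps21 are short proteins of the small subunit, and Rpl34 belongs to the large subunit. Rpl39, Rps28, Rpl38 and Rpl31 followed, with values from -0.04 to -0.01 in the authors' deposited table.

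The fold varied with level among these genes. By the authors' deposited table, the 19 tested genes with means of 6000 or more had a median log2 value of -0.20, and all 19 were negative. The median was -0.18 for the 31 from 3000 to under 6000, -0.14 for the 20 from 1000 to under 3000, and -0.03 for the 9 under 1000. The bins were chosen after the values were seen. These folds are shrunken towards 0, and undoing this gives 2 solutions per gene. They were -0.11 and -0.43 for Rps27, 0.01 and 0.02 for Rpl34, and 0.10 and 0.13 for Rps29. The part of shrinkage in the change of fold with level was not tested. Across the 79 genes the Spearman correlation of fold with mean count was -0.466, and with the length of the principal transcript -0.310. Among the 70 genes with a mean of at least 1000 these were -0.399 and -0.131. The 18 genes with principal transcripts under 500 bases had a median of -0.11 in the authors' deposited table, against -0.20 for the 43 of 500 to under 1000 bases and -0.16 for the 18 of 1000 bases or more. These correlations are descriptions over genes measured in the same libraries. The standard deviation of the 79 folds was 0.09, close to the median standard error of a single gene, 0.09, and the differences in fold between single ribosomal protein genes were not tested.

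**Figure D3:**
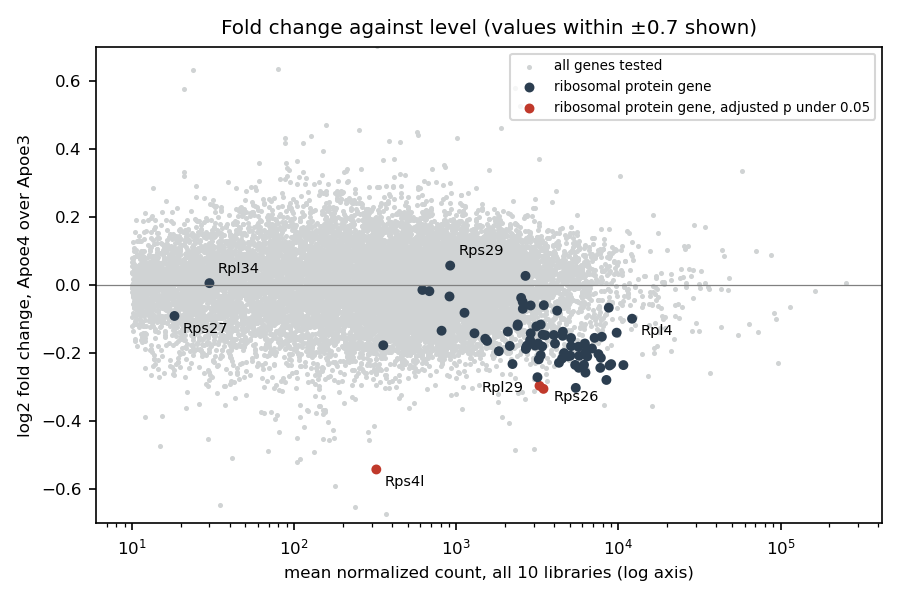
Log2 fold change of Apoe4 over Apoe3 (vertical axis) against mean normalized count over all 10 libraries (horizontal log axis) for all genes tested (grey) and ribosomal protein genes (dark, or red where the adjusted p was under 0.05), from the authors' deposited table. On the authors' shrunken scale, most ribosomal protein genes with means above 1000 lie below 0. Rps27, Rpl34 and Rps29 are nearer to 0 on that scale, and Rps4l lies apart at -0.54.

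Levels for the length of the transcript were compared among these genes only. In the authors' deposited table the 84 genes together made up 1.90% of all mean normalized counts. Divided by the length of the principal transcript, 73 canonical genes with a mean of at least 100 ran from 726 to 14119 normalized counts per kb, with a median of 5417 and quartiles of 3724 and 7217. Rps14 and Rps15 were at the top, and Rps20, whose only principal transcript is long, at the bottom. Order within this range depends on the transcript chosen for the length.

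A few essential genes were far lower in the table than the rest. Rpl26 is listed at 0, and the means of Rpl30, Rps27 and Rpl34 were 2.11, 18.3 and 30.0 in the authors' deposited table. All 4 code for parts of every ribosome. Of the 100-base windows in their transcripts, 36.8% for Rpl26, 53.5% for Rpl30, 98.4% for Rps27 and 31.0% for Rpl34 also occur in transcripts of other annotated genes. Rps27 shares its windows with Rps27rt, a copy on chromosome 9 that is listed at 0, and Rpl34 shares its own with Rpl34-ps1, also listed at 0. Such sharing was common, with a median of 41.4% over the 84 genes and over 50% in 36 of them, and its Spearman correlation with counts per kb was 0.155 over 82 genes. Rpl10, with 91.6% shared, had a mean of 7127 in the authors' deposited table. The part of shared sequence in the low values was not tested, and the folds of Rps27 and Rpl34 rest on few reads.

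**Figure D4:**
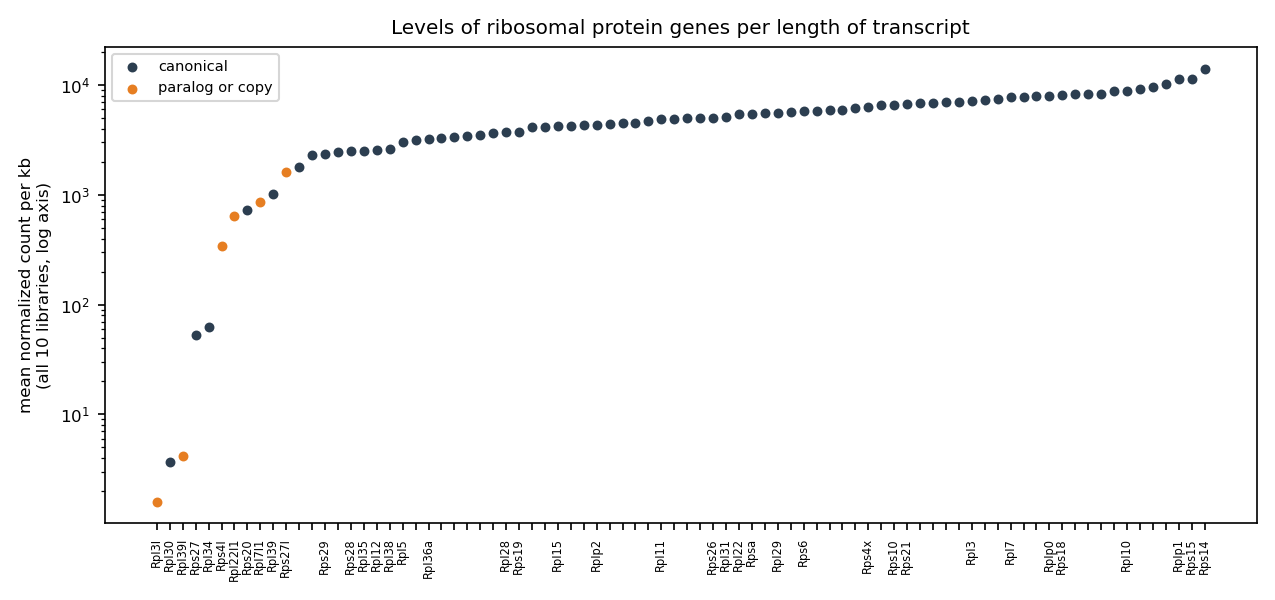
Mean normalized count per kb of transcript over all 10 libraries (vertical log axis) for the 82 ribosomal protein genes with a mean above 0, in order of level (horizontal axis), with canonical genes dark, paralogs or copies orange, and names for genes the text describes. Canonical genes with a mean of at least 100 centre on 5417, and Rpl34, Rps27 and Rpl30 lie far below it beside the paralogs Rpl39l and Rpl3l.

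Of the paralogs of ribosomal proteins, extra genes used in particular tissues, 3 were too low in the table to be tested. Since Rpl26 and Rpl30 are also at or near 0 there, such a value does not show that a gene is silent. Rpl3l, a muscle form of Rpl3, and Rpl39l, a testis form of Rpl39, had means of 2.20 and 2.32 in the authors' deposited table and were not tested. Rpl10l, a testis copy of Rpl10, is listed at 0. Of their partners in the authors' deposited table, Rpl3 had a mean of 9751 and stood at -0.14 (adjusted p = 0.506), and Rpl39 had a mean of 618.

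In 3 more pairs both partners were tested, and neither passed. Rps27l is a p53-responsive relative of Rps27. The authors' deposited table gave Rps27l a mean of 811 and a log2 fold change of -0.13 (adjusted p = 0.656), and 0% of its windows were shared; Rps27 stood at -0.09 there (adjusted p = 0.757). Of the pair that includes Rpl22, a protein the ribosome can do without, the authors' deposited table put Rpl22l1 at -0.18 (mean 354, adjusted p = 0.552) and Rpl22 at -0.05 (mean 2568, adjusted p = 0.883). It put Rpl7l1 at -0.08 (mean 1123, adjusted p = 0.702) and Rpl7 at -0.23 (mean 9019, adjusted p = 0.221), again from the authors' deposited table. Rpl36al, which the naming rule leaves out, was listed there at -0.20 (mean 1242, adjusted p = 0.409), and its X-linked partner Rpl36a at -0.16 (adjusted p = 0.456).

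Other genes of the translation machinery were read beside these. Among 26 other messages with a pyrimidine start, 0 fell by the authors' DESeq2 test (7 lower at an unadjusted p under 0.05) and 1 rose, Eif2s3x, an X-linked initiation factor gene that escapes X inactivation. The authors' deposited table put Eif2s3x at 0.58 with an adjusted p of 1.1e-23. Because the Y-linked genes tested all fell in Apoe4 (0.455% of all genes did), genotype and a sex-linked difference cannot be told apart for Eif2s3x. This list had a median of -0.11 with 22 of 26 negative, where 48.9% of all genes were. At the unadjusted p 5.76% of all genes were lower, and by the adjusted test 0.324% rose. The longest transcripts of this list have a median of 2535 bases. Fau, whose protein is cut into a ubiquitin-like part and a ribosomal protein, was listed by the authors' deposited table at -0.24 (adjusted p = 0.348). It put Gnb2l1, the older name of the small subunit scaffold Rack1, at -0.25 (adjusted p = 0.189), and the elongation factor gene Eef1a1 at -0.14 (adjusted p = 0.534). Eif3f and Eif3h, of the initiation factor that binds the small subunit, had log2 values of -0.24 (adjusted p = 0.0919) and -0.23 (adjusted p = 0.155), also from the authors' deposited table.

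Mitochondrial ribosomal proteins, which serve the separate ribosome of mitochondria, had a median of -0.13 on the log2 scale, with 75 of 77 negative. Of the 77, 2 fell by the authors' DESeq2 test, with 22 lower and 0 higher at an unadjusted p under 0.05, where 0.455% of all genes fell and 5.76% were lower at the unadjusted p. With the t distribution 0 of the 77 passed, and with the length trend subtracted 1 did for the longest transcript and 0 for the principal one. The 2 that fell were Mrps9, which the authors' deposited table put at -0.27 (adjusted p = 0.0136), and Mrps18c at -0.33 (adjusted p = 0.0251). The next was Mrpl4, listed there at -0.23 (adjusted p = 0.0912). The longest transcripts of this list have a median of 1849 bases. Whether its shift differs from that of the cytosolic genes was not tested.

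The lists of genes that build or control ribosomes lay closer to 0 and have longer transcripts. Their longest transcripts have medians of 2808.5 bases for assembly factors and 4991 for regulators, against 1094 for tested cytosolic ribosomal proteins. The part of transcript length in the medians of these lists was not tested. Ribosome assembly factors had a median of -0.03 in the authors' deposited table over 40 genes, and 0 passed by the authors' DESeq2 test. Of the 40, 23 were negative (57.5%, against 48.9% of all genes). At an unadjusted p under 0.05, 2 were lower, Rrp12 and Brix1 (5%, against 5.76% of all genes). Regulators of ribosomal protein synthesis had a median of 0.03 in the authors' deposited table over 17 genes, and 0 passed. At an unadjusted p under 0.05, 2 of the 17 were lower and 2 higher, against 5.76% and 4.54% of all genes. Among the regulators the authors' deposited table put Rheb, the GTPase that switches on mTOR, at -0.23 (adjusted p = 0.0881) and Deptor, an inhibitor of mTOR, at 0.24 (adjusted p = 0.385). It put the S6 kinase gene Rps6kb2 at -0.18 (adjusted p = 0.426) and Larp1 at 0.08 (adjusted p = 0.754).

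Targets of p53, which rise when ribosome assembly is disturbed, had a median of 0.02 in the authors' deposited table over 14 genes, and 0 passed. At an unadjusted p under 0.05, 1 of the 14 was lower, Bbc3, against 5.76% of all genes. The longest transcripts of this list have a median of 3162 bases. The authors' deposited table put Cdkn1a, the cell cycle inhibitor, at 0.13 (adjusted p = 0.510), Trp53inp1 at 0.15 (adjusted p = 0.556) and Mdm2, the brake on p53, at 0.01 (adjusted p = 0.958). The lists were set beside one another as descriptions, and no list was tested against another.

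**Figure D5:**
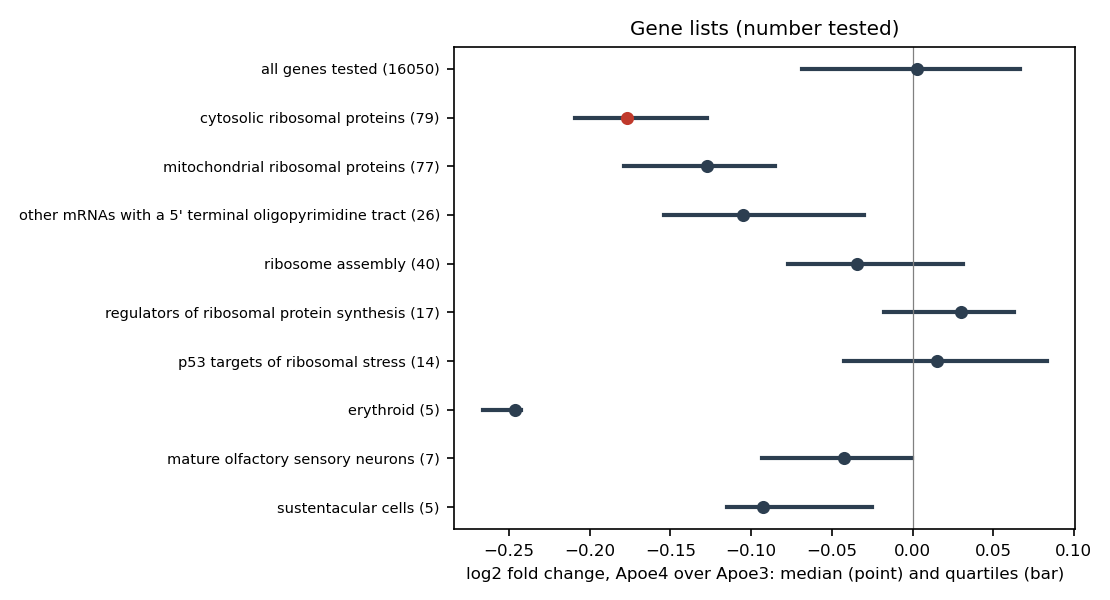
Median (point) and quartiles (bar) of the log2 fold change of Apoe4 over Apoe3 (horizontal axis) for gene lists, with the number of tested genes in brackets, from the authors' deposited table. Cytosolic (red, -0.18) and mitochondrial ribosomal proteins (-0.13) lie left of 0, assembly factors at -0.03, and the 5 tested red cell markers furthest left at -0.25.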

How the data were processed

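RNA of 10 libraries, 4 Apoe3 and 6 Apoe4, was sequenced; STAR, featureCounts, DESeq2 and the build GRCm38 are named by the submitters' processing notes, with versions, settings, strand and gene models not given in the sources used here. Only 1 table, with a row per gene, was used. Its mean is a signal, normalized counts averaged over all libraries by the authors. The authors' deposited log2 fold changes and log2 standard errors are shrunken (error ceiling 0.105), the deposited score is the Wald statistic, and the deposited p-values are its two-sided normal p, adjusted by Benjamini-Hochberg over 16050 genes with means of about 10 or more. Its headers do not say which group a positive fold favours. Single-read genes fell on 10 levels of the mean, 6 with positive and 4 with negative folds, so positive was read as higher in Apoe4; each level held at least 10 genes. The same levels gave size factors of 0.859 to 1.14 in Apoe3 and 0.891 to 1.16 in Apoe4. Multiplied by the sum of all means, they give about 14900000 to 20100000 reads counted on genes per library.

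The design named the authors' test, or a refit if counts per library came with it, and the authors' test was used. Ribosomal protein genes and all lists were chosen with earlier results of these data known. Genes named in full were those past the threshold, the 6 smallest p, the 4 highest folds, X-linked genes, paralog pairs, stalk and disease genes, and from each other list those that passed and up to 3 with the smallest p; Rps19, Larp1, Mdm2, Eef1a1, Fau, Gnb2l1, Rps28, Rpl38, Rpl31 and the genes of low level were added after their values were seen. Some genes that the rule names are not reported here. Intervals are the fold ± 1.96 standard errors. Positions came from RefSeq (GRCm38.p6; 15357 tested genes matched by symbol, 663 by synonym) and lengths from GENCODE vM21 (99.5% of tested genes). The principal transcript is the shortest one tagged as principal, or the longest of all where none is. Shared windows are exact matches of 100 bases, on either strand, in annotated transcripts. For the alternative without the length trend, a lowess fit (fraction 0.3; statsmodels 0.14.6) against log2 length was subtracted: from the Wald statistic for tests, and from the folds (longest transcript) for the median and signs. Functions were tested on simulated data. Python 3.11.15, scipy 1.17.1 and Biopython 1.88 were used.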

Additional observations from a re-analysis of the deposited data

How the results depend on the processing

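The count of 3 ribosomal protein genes that fell was the same with no filter on the mean, with a minimum mean of 100, without X and Y genes and with folds centred on genes with a mean of at least 1000. With a t distribution of 8 degrees of freedom in place of the authors' normal for their DESeq2 statistic it was 0 (26 lower at an unadjusted p under 0.05), and all genes called dropped from 125 to 15. With the length trend subtracted it was 1, Rps4l, for the longest transcript and also 1 for the principal transcript, an alternative chosen after seeing the data; 14 genes were then lower at an unadjusted p under 0.05 with either length, against 40 without the subtraction. The mitochondrial count of 2 became 0 with the t distribution (8 lower at an unadjusted p under 0.05), 1 with the trend of the longest and 0 with that of the principal transcript (11 lower at an unadjusted p under 0.05). Without X and Y genes the count of other pyrimidine-start genes that rose was 0, since Eif2s3x is X-linked. Apart from the effect of leaving out X and Y genes, the cause of these differences was not tested. The median fold of -0.18 ran from -0.22 with approximate unshrunken folds to -0.11 with the length trend subtracted. For the unshrunken median, the solution of smaller size was taken for every gene. No paired analysis was possible because the deposited table holds no values per library, and leaving out replicates or another count tool was not run for the same reason. Depth per library is known only approximately, and genes with few reads, such as Rps27 and Rpl34, carry little information on direction.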

Other observations

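Names of processed copies that the rule left out give a view of how the table treats retrocopies. Of those with a row, Rps19-ps3, Rpl14-ps1 and Rpl37rt had means of 19.2, 18.9 and 17.3 in the authors' deposited table, with log2 fold changes of -0.11, -0.03 and 0.04 and adjusted p of 0.719, 0.935 and 0.907. Rps27rt, Rpl34-ps1 and Rplp2-ps1 are listed at 0. Rps4l, with a mean of 321, stood far above these copies in level in the authors' deposited table.

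The ribosomal protein transcripts with no shared 100-base window in other annotated genes were 9, among them Rps3, Rpl32, Rps21 and Rpl22. In that order, the authors' deposited table gave them log2 values of -0.15, -0.14, 0.03 and -0.05, which lie across the range of the group. Across 79 genes the share of windows had a Spearman correlation of -0.086 with the fold, a description over genes of the same libraries.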
